A study of Mus musculus with 17 samples.

Results

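The 10 genes described here were the acute phase and IL-6 response genes Hp, Lrg1, Saa3, Lcn2, C3, Cp, Il6, Socs3, Cebpd and Osmr, chosen by symbol from 31245 genes measured in mouse lung. All 10 were found in the count table and all 10 had enough counts to be tested, among 26946 genes tested. Lung RNA was sequenced from 17 mice to ask how perfluorooctanoic acid (PFOA), a long-chain perfluoroalkyl substance, in drinking water altered gene expression with mouse, human or no PPARα, the nuclear receptor through which PFOA acts on liver lipid genes. Wildtype (WT) mice were Sv/129 animals bought from a vendor, and PPARα null (KO) and humanized PPARα (KI) mice came from the breeding of PPARα null with human PPARα heterozygous mice. All mice ate a custom diet modelled on that of adults in the United States, from 6 weeks of age. For 14 weeks, the drinking water of all mice held sucrose, and that of the PFOA mice also held 6.2 µg/mL PFOA. The WT vehicle group had 2 libraries, and the WT PFOA, KO vehicle, KO PFOA, KI vehicle and KI PFOA groups had 3 each, 1 per mouse. Libraries are named by their mouse numbers. WT and KI mice were of both sexes, while all KO mice were female. Strain source therefore cannot be told apart from the WT genotype.

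Interleukin 6 and its relatives, such as oncostatin M and leukemia inhibitory factor, bind a receptor of their own that pairs with the shared chain gp130, which activates JAK kinases and the transcription factor STAT3. STAT3 and C/EBP factors then raise the genes of acute phase proteins, and STAT3 also raises SOCS3, which inhibits the receptor. The liver makes most acute phase protein of plasma, but airway and alveolar epithelium, macrophages and neutrophils of the lung also make several of them, among them haptoglobin, lipocalin 2 and complement C3.

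Total counts per library ranged from 4116118 to 9237356 (median 7524757), so that 3 counts in a library were worth 0.319 to 0.691 CPM (counts scaled to the size of the library, with TMM factors). CPM show levels in whole lung, where fewer cells of a type and less RNA per cell cannot be told apart. Ppara, the targeted gene, had 4.39 to 7.21 CPM in the 5 WT libraries, 8.82 to 11.7 CPM in the 6 libraries labelled KO and 9.08 to 20.4 CPM in the 6 labelled KI. Because Ppara was no lower under the KO label, the names KO and KI below refer to labels that these counts could not check. Protein-coding genes took 65.3% of the counts in WT vehicle library 122 and 61.3% in KO vehicle library 137, against 74.4% to 80.4% in the other 15. All 3 KO PFOA libraries carried a sequencing index (i5) that no KO vehicle library carried, so index and exposure cannot be told apart in KO. The summed level of 8 hepatocyte markers was 1.8 to 8.1 CPM over all libraries, with Cps1 at 0 in every library.

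The bases just before the start of 8 of the 10 genes were found in RefSeq (GRCm38.p6, the mm10 build of the files), all except Hp and Cebpd. The sequences of Lrg1 and Lcn2 are shown because the levels of these genes ran in parallel across the libraries, and those of Il6 and Socs3 because they encode the ligand and the feedback inhibitor of the pathway. Each is the 250 bases before the RefSeq start, 5′ to 3′ on the strand of the gene, with motif matches in capitals. The GENCODE M21 spans of Lrg1, Lcn2 and Socs3, given below, begin further upstream. By those spans, the Lcn2 and Socs3 sequences lie inside the gene, and the Lrg1 sequence lies partly inside it. The Lrg1 sequence lies at chr17:56121947-56122196 (minus strand), Lcn2 at chr2:32387740-32387989 (minus strand), Il6 at chr5:30012864-30013113 (plus strand) and Socs3 at chr11:117969367-117969616 (minus strand).
Lrg1: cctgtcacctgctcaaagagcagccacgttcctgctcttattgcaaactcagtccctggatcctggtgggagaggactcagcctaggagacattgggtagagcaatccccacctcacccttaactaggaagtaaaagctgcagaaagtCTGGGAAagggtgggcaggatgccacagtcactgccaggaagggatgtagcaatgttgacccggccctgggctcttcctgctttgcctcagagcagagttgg
Lcn2: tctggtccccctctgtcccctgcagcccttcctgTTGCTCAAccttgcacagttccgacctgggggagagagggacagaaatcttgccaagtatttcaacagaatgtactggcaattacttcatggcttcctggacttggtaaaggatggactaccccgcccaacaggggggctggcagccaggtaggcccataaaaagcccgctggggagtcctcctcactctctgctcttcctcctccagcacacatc
Il6: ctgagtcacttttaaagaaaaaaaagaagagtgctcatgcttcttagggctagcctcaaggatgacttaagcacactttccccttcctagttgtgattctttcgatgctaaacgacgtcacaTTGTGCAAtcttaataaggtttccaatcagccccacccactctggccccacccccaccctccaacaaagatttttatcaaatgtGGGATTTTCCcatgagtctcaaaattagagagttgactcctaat
Socs3: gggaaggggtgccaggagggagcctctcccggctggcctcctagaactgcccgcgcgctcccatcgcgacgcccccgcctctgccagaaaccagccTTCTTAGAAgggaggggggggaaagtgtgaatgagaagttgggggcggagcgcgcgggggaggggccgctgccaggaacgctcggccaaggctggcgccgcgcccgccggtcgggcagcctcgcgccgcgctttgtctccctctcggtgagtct

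The motifs searched on both strands were the STAT palindrome TTCNNNGAA, the C/EBP pattern TTGCNNAA, the CTGGGAA element of IL-6 responsive acute phase genes, and the kappa B pattern. No match overlapped another in these sequences. Lrg1, which encodes a secreted glycoprotein of endothelium, neutrophils and liver, held CTGGGAA 102 bases before its start, as 9.14% of 32536 promoter sequences of this length did. A C/EBP pattern was found in 5 of the 8 genes (Lcn2 at 216 bases, Saa3 at 99, C3 at 45, Il6 at 128 and the second of 2 starts of Cp at 70), and in 9.57% of all promoters. Socs3 held the STAT palindrome at 154 bases, which 7.04% of promoters held. Il6 also held a kappa B pattern at 44 bases, which 3.92% of promoters held, while Osmr held none of the 4 motifs. A match is a run of letters in this window and does not show binding of a factor.

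Per exon length, Hp and C3 were the most abundant members, Cebpd, Lrg1, Cp, Lcn2, Socs3 and Osmr lay in between, and Saa3 and Il6 were barely detected. Levels between genes are given as TPM, which scales the counts by exon length and by the library. Hp, which encodes the haemoglobin-binding protein haptoglobin (ENSMUSG00000031722, chr8:109575128-109579172), had the highest median at 451 TPM over the 17 libraries (327 to 746). C3, the central complement component (ENSMUSG00000024164, chr17:57203970-57228136), followed at 275 TPM (59.2 to 387). Hp lay above C3, and C3 above the next gene, in 17 of 17 libraries.

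Cebpd, which encodes a transcription factor induced early in the acute phase response (ENSMUSG00000071637, chr16:15887286-15891031), had a median of 63.5 TPM (17.7 to 112). Lrg1 (ENSMUSG00000037095, chr17:56119678-56122001) stood at 43.5 TPM (16.8 to 67.5), and Cp, the copper-binding ferroxidase ceruloplasmin (ENSMUSG00000003617, chr3:19957054-20009145), at 43.1 TPM (23.6 to 51.5). The ranges of these 3 overlapped. Cebpd lay above Lrg1 in 9 of 17 libraries, made up of 5 of 5 WT, 4 of 6 KI and 0 of 6 KO libraries. The KI libraries were 3 of 3 on vehicle and 1 of 3 on PFOA. Lrg1 lay above Cp in 9 of 17 libraries, and this order followed exposure. On PFOA it did so in 2 of 3 WT, 3 of 3 KO and 3 of 3 KI libraries. On vehicle the counts were 0 of 2, 1 of 3 and 0 of 3.

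Lcn2, the siderophore-binding protein lipocalin 2 (ENSMUSG00000026822, chr2:32384633-32388252), had a median of 21.8 TPM (6.25 to 41.5). It lay below Cp in 17 of 17 libraries and above Socs3 in 13 of 17. Socs3 (ENSMUSG00000053113, chr11:117966079-117970047) had 19.1 TPM (12.7 to 24.5) and Osmr, the receptor chain for oncostatin M (ENSMUSG00000022146, chr15:6813577-6874969), 16.9 TPM (7.83 to 23.6), with Socs3 above Osmr in 15 of 17. Saa3, the serum amyloid A made outside the liver (ENSMUSG00000040026, chr7:46711998-46715700), was at a median of 0.548 TPM, and Il6 (ENSMUSG00000025746, chr5:30013114-30019981) at 0.121 TPM.

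**Figure D1:**
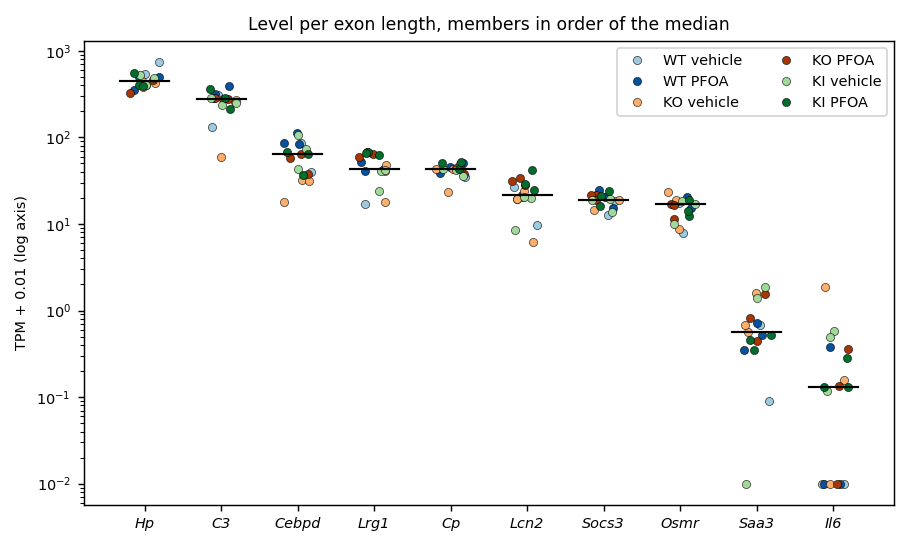
Level of each of the 10 genes per exon length (TPM + 0.01, log axis), with 1 point per library (17 per gene) coloured by group and a bar at the median. Hp and C3 lie highest, from 59.2 to 746 TPM, Cebpd to Osmr lie in between, and Saa3 and Il6 lie lowest, with points at the bottom for libraries with no count.

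Il6 itself was at the detection limit in these lungs. It had 34 counts in all, found in 11 of 17 libraries. The 2 WT vehicle libraries had 0 counts each, which allows up to 0.3996 and 0.491 CPM in counting error, and the WT PFOA libraries had 0, 0 and 3. KO vehicle library 137 had 12 counts, and the other 16 libraries had 0 to 4. No fold change is given for Il6, because most of its libraries are at or under 3 counts.

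Saa3 had 110 counts in all and at most 17 in a library. On vehicle it had 6 and 1 counts in WT, 11, 4 and 6 in KO, and 14, 14 and 0 in KI. On PFOA the counts were 5, 5 and 3 in WT, 4, 17 and 7 in KO, and 6, 3 and 4 in KI. Exposed and vehicle libraries overlapped in each genotype, and a change of Saa3 was not detectable at this depth (unadjusted p by edgeR, 0.846 for WT, 0.920 for KO and 0.185 for KI).

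Among the receptor and signalling members, the exposed and vehicle libraries of Osmr overlapped in each genotype, and those of Socs3 in WT and KI. Osmr had 96.6 and 74.0 CPM in WT vehicle and 87.4, 98.7 and 94.6 CPM in WT PFOA libraries. In KO, its levels were 66.1, 90.3 and 124.8 CPM on vehicle and 95.3, 88.7 and 68.6 CPM on PFOA. In KI, they were 55.9, 110.4 and 98.1 CPM on vehicle and 77.2, 101.2 and 81.6 CPM on PFOA. The log2 fold change of Osmr was 0.13 ± 0.26 (SE) in WT, -0.16 ± 0.23 in KO and -0.03 ± 0.23 in KI.

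Socs3 ranged from 18.3 to 33.5 CPM over all libraries. In WT it had 23.8 and 28.7 CPM on vehicle, and 21.04, 28.2 and 25.4 CPM on PFOA. KO vehicle libraries had 25.8, 21.4 and 25.5 CPM, and KO PFOA libraries 29.1, 28.1 and 27.2 CPM. The KO groups did not overlap, but the log2 difference was 0.22 ± 0.18 (SE), with an edgeR adjusted p of 0.674. In KI, the vehicle libraries had 18.3, 27.5 and 26.2 CPM of Socs3, and the PFOA libraries 23.9, 26.7 and 33.5 CPM.

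**Figure D2:**
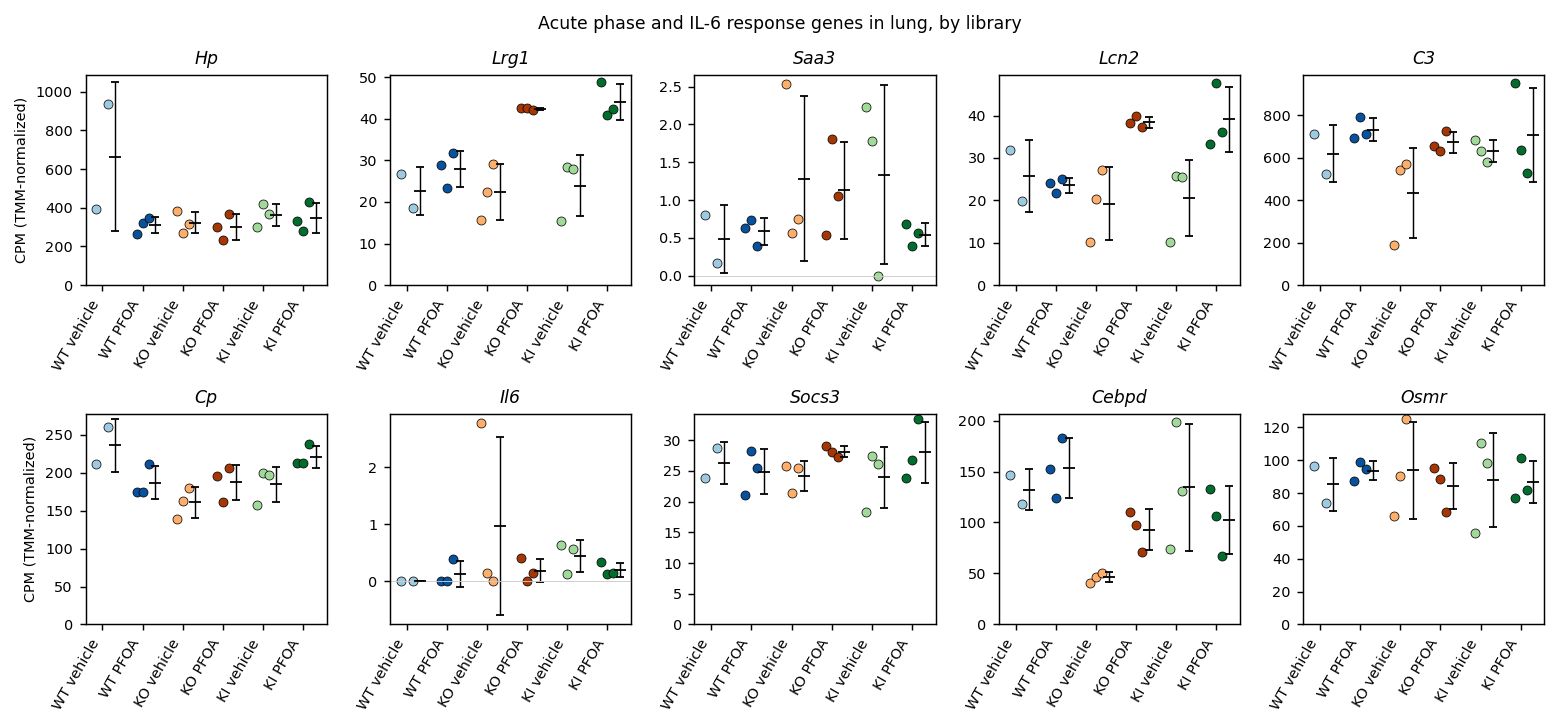
CPM of each of the 10 genes in every library (points) by group, with the group mean and SD beside them (bars, n = 2 in WT vehicle and n = 3 elsewhere). Lrg1 and Lcn2 sit higher on PFOA in KO and KI, Hp is high in 1 WT vehicle library (935.7 CPM), and Cebpd is low in the KO vehicle libraries (41.0 to 50.6 CPM).

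In WT mice, the haptoglobin transcript was lower in the 3 PFOA libraries than in the 2 vehicle libraries, while the other members overlapped between the groups. Hp had 392 and 936 CPM in WT vehicle libraries 107 and 122, and 266, 319 and 348 CPM in WT PFOA libraries. The exposed libraries all lay below both vehicle libraries, and 1 vehicle library was far above the other. As TPM, which are not TMM-scaled, the vehicle libraries lay closer, at 539 and 746, against 351, 498 and 498 on PFOA. The log2 fold change was -1.09 ± 0.28 (SE), with an unadjusted p of 0.00114 and an adjusted p of 0.456 (edgeR, Benjamini-Hochberg over all genes). Hp did not pass the threshold of an adjusted p under 0.2 and a fold over 2. The paper counted Hp among the main genes of its enriched set for regulation of the inflammatory response. It also named Hp among genes that met its own cut-offs as an artifact, on weak support, because few vehicle lungs were available. It had left out 1 WT vehicle sample for poor RNA quality and weak sequencing.

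Over all genes in WT, edgeR called 0 (0%), with 1981 genes (7.35%) at an unadjusted p under 0.05. DESeq2 called 24 on the same genes and 74 with its default filters. Of the members, 0 were called by edgeR and 1 of 10, Hp, had an unadjusted p under 0.05, or 0 of 10 when libraries 122 and 137 were left out. DESeq2 called Hp at an adjusted p of 0.197. Hp was also the 1 member of 10 whose WT groups did not overlap, as 22.5% of all genes did in this comparison of 2 with 3 libraries.

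The size of the Hp difference turned on WT vehicle library 122. Without library 122 its log2 fold change was -0.33 (edgeR adjusted p of 1), and without library 107, which leaves 122 as the lone vehicle library, assumed to vary like the other groups, it was -1.59 (edgeR adjusted p of 0.0122). The summed level of 8 club cell markers, secretory cells of the airway, was 31352 CPM in library 122, 14639 CPM in library 107 and 9413 to 11731 CPM in the WT PFOA libraries. Of these 8 markers, 7 were below 0 in the WT comparison (median log2 fold change -0.96), and none of them was at 0. Ciliated cell markers lay on the same side, with 7 of 7 below 0 (median log2 fold change -1.03) and all 7 at an unadjusted p under 0.05. Their sum was 304 to 472 CPM in WT vehicle and 195 to 251 CPM in WT PFOA libraries. The part of these markers in the Hp difference was not tested.

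Across the 17 libraries, the genes most like Hp in level were airway genes. They were Scgb1a1, the main secretory protein of club cells (r = 0.94, and 0.77 without the 2 libraries farthest from the median of Hp), Wfdc2 (r = 0.94 and 0.87) and Cyp2f2, a club cell cytochrome P450 (r = 0.92 and 0.72). They were the highest of 13372 genes with a mean of at least 5 CPM. The level of Scgb1a1 was 15667 ± 8042 CPM (SD, n = 2) for WT mice on vehicle, and on PFOA it was 6217 ± 853 CPM (SD, n = 3). Hp and the summed club cell markers had r = 0.95 and rho = 0.88 (r = 0.81 without the 2 farthest libraries), and Hp and the summed ciliated cell markers r = 0.85 (0.71). These correlations are over libraries that share scaling and groups, and Scgb1a1 and Cyp2f2 are also among the 8 markers.

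**Figure D3:**
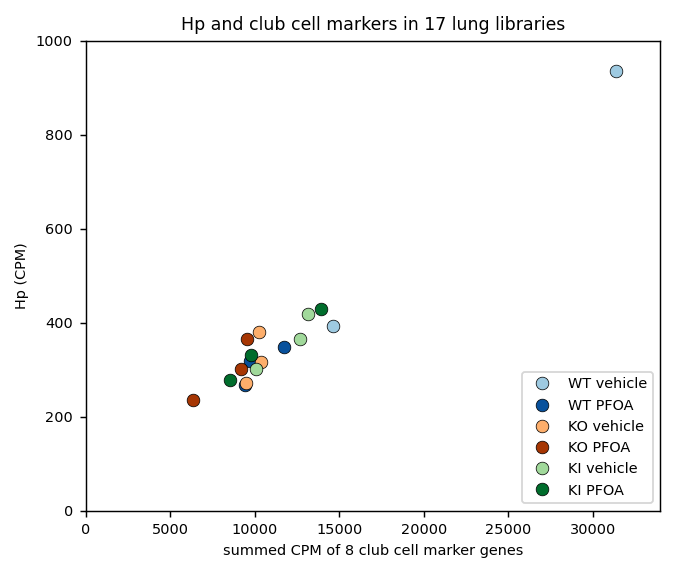
Hp (CPM) against the summed CPM of 8 club cell marker genes in 17 libraries, coloured by group. WT vehicle library 122 lies alone at 31352 and 936 CPM, and the other 16 libraries lie between 6331 and 14639 CPM of markers and 235 and 429 CPM of Hp.

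In KO mice, Lrg1, Lcn2, Cebpd and C3 were higher on PFOA than on vehicle in every library. None of them passed the threshold after adjustment over all genes. Lrg1 had 15.7, 22.5 and 29.1 CPM in KO vehicle and 42.5, 42.6 and 42.2 CPM in KO PFOA libraries. The 3 exposed libraries were nearly equal and lay above the highest vehicle library. The log2 fold change was 0.90 ± 0.23 (SE), with an unadjusted p of 0.000885 and an adjusted p of 0.434 (edgeR).

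Lcn2 had 10.1, 20.3 and 27.2 CPM in KO vehicle and 38.3, 39.8 and 37.2 CPM in KO PFOA libraries, again without overlap. Its log2 fold change was 0.97 ± 0.31 (SE), with an edgeR adjusted p of 0.469. Cebpd had 41.0, 47.0 and 50.6 CPM on vehicle and 110.7, 97.4 and 70.7 CPM on PFOA. Here too the groups did not overlap, at a log2 fold change of 1.01 ± 0.29 (SE) and an edgeR adjusted p of 0.469.

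C3 had 188, 542 and 570 CPM in KO vehicle and 658, 632 and 728 CPM in KO PFOA libraries. The low value was that of library 137, and the other 5 KO libraries lay closer together. Its log2 fold change was 0.63 ± 0.29 (SE), with an edgeR adjusted p of 0.504, and leaving out a library in turn moved it between 0.27 and 0.88. The lowest vehicle values of Lrg1 and Lcn2 were also those of library 137. Without library 137 the log2 fold change in KO was 0.71 for Lrg1, 0.69 for Lcn2, 0.93 for Cebpd and 0.27 for C3. With the i5 index as a covariate, which then rests on the other genotypes, it was 1.60 for Lrg1, 1.93 for Lcn2, 1.57 for Cebpd and 0.57 for C3, with edgeR adjusted p from 0.399 to 0.748.

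Over all genes in KO, edgeR called 0 (0%), with 2639 (9.79%) at an unadjusted p under 0.05. DESeq2 called 68 on the same genes and 72 with its default filters. Of the members, 0 were called by edgeR and 4 of 10 had an unadjusted p under 0.05 (Lrg1, Lcn2, C3 and Cebpd), or 3 of 10 without C3 when libraries 122 and 137 were left out. With DESeq2, Lrg1 had an adjusted p of 0.157 but a fold under 2, and 0 members were called. The groups did not overlap for 5 of 10 members, these 4 and Socs3, and for 12.8% of all genes. Hp and Cp overlapped, with log2 fold changes of -0.10 ± 0.26 and 0.22 ± 0.15 (SE).

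Markers of several cell types, immune cells among them, were also higher in the KO PFOA libraries. The summed level of 8 alveolar macrophage markers was 96.3 to 232 CPM on vehicle and 307 to 356 CPM on PFOA, with 8 of 8 above 0 in log2 fold change. For 6 monocyte markers the sums were 42.4 to 75.7 and 103 to 154 CPM. For 11 neutrophil markers they were 23.1 to 71.6 and 63.2 to 107 CPM, which overlapped. Of the 9 tested, 8 were above 0, and Ly6g and Camp were at 0 in both groups. Other lists were also mostly above 0, with 7 of 7 alveolar type 2 (median 0.43) and 6 of 6 mesothelial markers (0.45). So were 6 of 6 endothelial (0.22) and 6 of 7 fibroblast markers (0.27). Club, ciliated and hepatocyte lists went the other way, with 6 of 8, 5 of 7 and 3 of 5 markers below 0. On vehicle, library 137 had the lowest alveolar macrophage, monocyte and alveolar type 2 sums and the highest neutrophil sum. The part of these markers in the levels of Lrg1, Lcn2, C3 and Cebpd was not tested.

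In KI mice, Lrg1 and Lcn2 were also higher on PFOA in every library, and neither passed the threshold. Lrg1 had 15.4, 28.5 and 27.8 CPM in KI vehicle and 49.0, 40.9 and 42.5 CPM in KI PFOA libraries. Lcn2 had 10.2, 25.8 and 25.6 CPM on vehicle and 33.3, 47.8 and 36.2 CPM on PFOA. For both genes the groups did not overlap, and KI vehicle library 102 was lowest. The log2 fold changes were 0.88 ± 0.23 for Lrg1 and 0.92 ± 0.31 for Lcn2 (SE), with an unadjusted p of 0.00106 and 0.00732 and an edgeR adjusted p of 1 for each.

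Cp was also higher in KI PFOA libraries, at 212.1, 212.8 and 237.8 CPM against 157.3, 199.6 and 196.5 CPM on vehicle. The difference was 0.26 ± 0.15 on the log2 scale (SE), with an unadjusted p of 0.107. Cebpd overlapped, with vehicle libraries at 73.7, 199 and 131 CPM and PFOA libraries at 133, 107 and 67.2 CPM, and so did C3 and Hp. Over all genes in KI, edgeR called 0 (0%), with 699 (2.59%) at an unadjusted p under 0.05, whereas DESeq2 on the same genes called 1. Of the members, 0 were called by either tool and 2 of 10, Lrg1 and Lcn2, had an unadjusted p under 0.05. The groups did not overlap for 3 of 10 members (Lrg1, Lcn2 and Cp) and for 8.23% of all genes.

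In KI, the sums of immune cell markers overlapped between the groups. Alveolar macrophage markers summed to 183 to 206 CPM on vehicle and 200 to 310 CPM on PFOA. Neutrophil markers summed to 23.6 to 134 CPM and 46.5 to 59.4 CPM, the highest being vehicle library 102, where Lrg1 and Lcn2 were lowest. Fibroblast markers did not overlap, at 1471 to 1547 CPM on vehicle and 1598 to 1991 CPM on PFOA, with 7 of 7 above 0 in log2 fold change. The 7 alveolar type 2 cell markers were also all above 0, and their sums overlapped (6626 to 9218 and 7111 to 9873 CPM). The part of these markers in the levels of Lrg1 and Lcn2 was not tested.

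**Figure D4:**
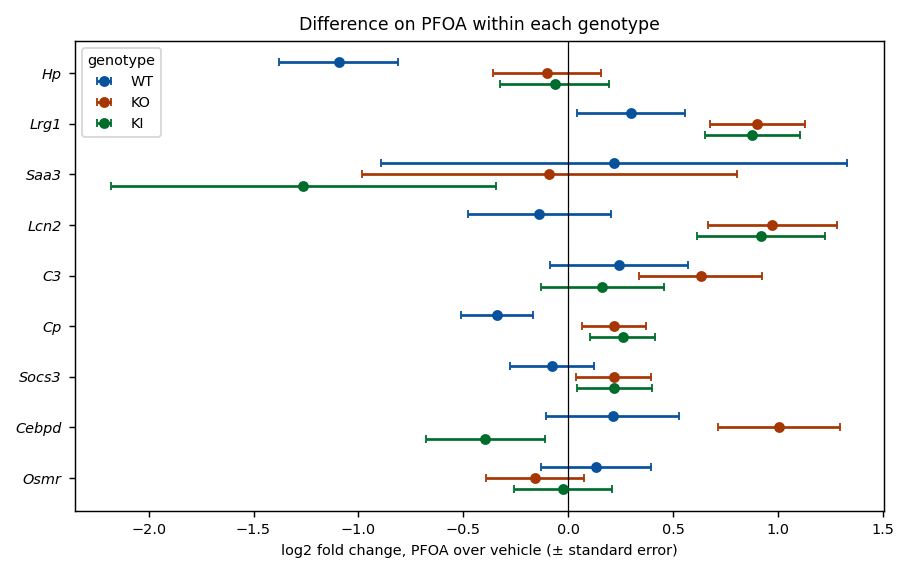
Log2 fold change of PFOA over vehicle in WT, KO and KI (points, coloured by genotype) with the standard error (bars) from edgeR, for the 9 members other than Il6. Lrg1 and Lcn2 lie near 0.9 in KO and KI, Hp lies at -1.09 in WT and near 0 elsewhere, and the error bars of Saa3 are the widest.

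In WT mice, the vehicle libraries had 26.8 and 18.5 CPM of Lrg1, and the PFOA libraries 28.9, 23.2 and 31.7 CPM. Lcn2 stood at 31.8 and 19.8 CPM in these vehicle libraries and at 24.1, 21.6 and 24.9 CPM in the exposed ones. Both overlapped, with log2 fold changes of 0.30 ± 0.26 and -0.14 ± 0.34 (SE). The difference of the KO effect from the WT effect was tested itself, and it was 1.11 ± 0.46 for Lcn2, 0.99 ± 0.39 for Hp and 0.56 ± 0.23 for Cp on the log2 scale (SE), each with an edgeR adjusted p of 0.669. For Lrg1 it was 0.60 ± 0.34 (SE), with an unadjusted p of 0.095. None of these differences passed the threshold.

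The difference of the KI effect from the WT effect was 1.06 ± 0.46 for Lcn2, 1.03 ± 0.39 for Hp and 0.60 ± 0.23 for Cp (SE), each with an edgeR adjusted p of 0.999. Both differences use the WT libraries, so the KO and KI values are not independent. Of the members, 0 were called in either comparison and 3 of 10 had an unadjusted p under 0.05 in each. Over all genes edgeR called 0 (0%) in both, with 2010 (7.46%) and 1235 (4.58%) at an unadjusted p under 0.05. The calls of DESeq2 on the same genes numbered 3 and 1. Without WT vehicle library 107, edgeR called Hp in both, at log2 differences of 1.48 and 1.52, and without library 122 these were 0.23 and 0.26.

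Over the 3 genotypes together, Lrg1 was the member with the lowest p for exposure. Its log2 fold change in a model with genotype as a term was 0.72 ± 0.14 (SE), with an unadjusted p of 5.24e-05 and an edgeR adjusted p of 0.288. With DESeq2 the adjusted p was 0.0112, at a fold under 2. An exact permutation test of Lrg1, with exposure rearranged within genotype in all 4000 ways, gave a two-sided p of 0.001. The paper had already listed Lrg1 among the top genes of its combined analyses of these libraries, so this p is not independent evidence. Lcn2 had a log2 fold change of 0.63 ± 0.21 (SE), an edgeR adjusted p of 0.468 and an exact permutation p of 0.00875.

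C3 stood at 0.35 ± 0.17 on the log2 scale (SE), with an exact permutation p of 0.0398, and Hp at -0.38 ± 0.18, with an exact permutation p of 0.087. The exact permutation p of the other 6 members ranged from 0.207 for Socs3 to 0.957 for Osmr. These p-values are each for a single gene of the 10 and are not adjusted. Of the members, 0 were called and 3 of 10 (Hp, Lrg1 and Lcn2) had an unadjusted p under 0.05 with edgeR, or Lrg1 and Lcn2 when libraries 122 and 137 were left out. Over all genes, edgeR called 0 (0%), with 2228 (8.27%) at an unadjusted p under 0.05, and DESeq2 on the same genes called 26. Leaving out each library in turn kept Lrg1 between 0.64 and 0.83 and Lcn2 between 0.51 and 0.81.

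Lrg1 and Lcn2 varied together across the libraries. Over 17 libraries their r was 0.92 and rho 0.87 (r = 0.87 without the 2 libraries farthest from the median of Lrg1). After the group means were taken out, r was 0.89. Within the KI PFOA group the order was opposite, with library 57 highest in Lrg1 (49.0 CPM) and lowest in Lcn2 (33.3 CPM). Lcn2 and Osmr had r = 0.92 and Lrg1 and Osmr r = 0.79 in these deviations (rho = 0.87 and 0.65), against r = 0.51 and 0.34 in the levels. Without the 2 libraries farthest from the median of Lcn2 or of Lrg1, r in the levels was -0.08 and -0.21. Of the 28 pairs among the 8 members other than Il6 and Saa3, 11 had r over 0.5 in the deviations and 0 had r under -0.5. Pairs with Il6 or Saa3, which rest on few counts, did include r under -0.5 (-0.74 for C3 and Il6, -0.65 for Saa3 and Cp). The share of such pairs among other genes was not measured, so these counts have no background to be set against. All points share the scaling of their library, and library 137 was low in several members at a time.

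**Figure D5:**
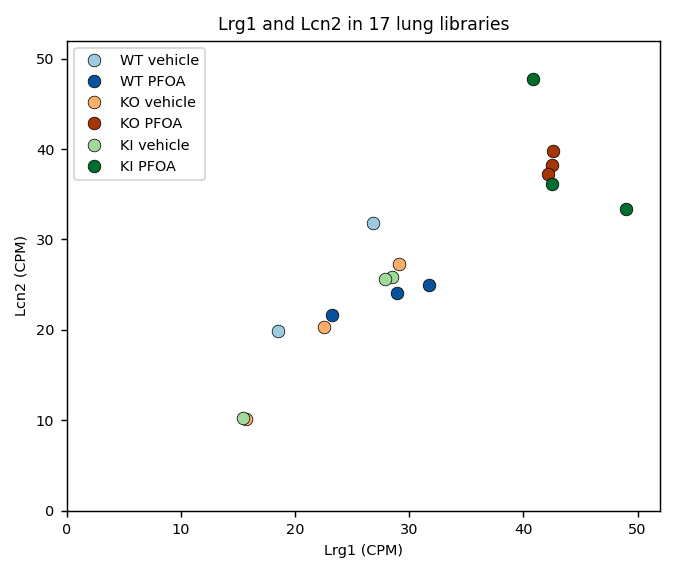
Lcn2 (CPM) against Lrg1 (CPM) in 17 libraries, coloured by group. The 6 KO and KI PFOA libraries lie together above 40 CPM of Lrg1 and 33 CPM of Lcn2, and all other libraries lie below 32 CPM in both.

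Outside the members, the genes most like Lrg1 were Ifitm3 (r = 0.86), an interferon-inducible membrane protein, Suox (r = 0.85), the sulfite oxidase, and Lpcat3 (r = 0.85), which acylates lysophospholipids. Those most like Socs3 were Utp25 (r = 0.80), Gm28373 (r = 0.77) and Mfsd2a (r = 0.73), a lipid transporter. Those most like Saa3 were Ppcs, Zfp41 and Dhodh (r = 0.77, 0.77 and 0.75), where Saa3 rests on few counts. These are the highest of 13372 genes over 17 libraries, and Saa3, Socs3 and their nearest genes had lower r (0.51 to 0.69) without the 2 farthest libraries.

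Between genotypes, Cebpd was lower in KO than in WT, and it was the only member called in any of the 9 comparisons by edgeR. The KO libraries had 41.0 to 110.7 CPM and the WT libraries 118 to 183 CPM. In CPM, the highest KO library was below the lowest WT library, and the KO vehicle libraries were lowest of all. As TPM, which are not TMM-scaled, the genotypes overlapped. KO PFOA libraries 52 and 154 had 63.5 and 58.1 TPM, and WT vehicle library 122 had 40.3 TPM. The log2 fold change over both exposures was -1.06 ± 0.26 (SE), with an adjusted p of 0.0337 (edgeR) and 0.00424 (DESeq2).

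The call of Cebpd was at the edge of the fold threshold. Without WT PFOA library 65, KO vehicle library 137 or KO vehicle library 145 its log2 fold change was -0.99, -0.95 and -0.98, with an edgeR adjusted p of 0.0915, 0.0530 and 0.0800, which ends the call by the size of the fold. With the i5 index as a covariate it was -0.86, with an edgeR adjusted p of 0.346. Spidr, which overlaps Cebpd on the opposite strand, had -0.23 ± 0.12 (SE), and how the counting used the strand is not given in the sources used here. Cp and Hps3, and C3 and Mir6978, overlap as well.

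Of the members, 1 of 10 was called between KO and WT, where edgeR called 2.36% of all genes (637), and 2 of 10 (Hp and Cebpd) had an unadjusted p under 0.05, as 12.9% of all genes did. Hp stood at -0.51 ± 0.22 (SE), with an edgeR adjusted p of 0.311. Between KI and WT, 0 members were called against 1.37% of all genes (368), and 1 of 10, Lrg1 (0.41 ± 0.18, adjusted p of 0.439), had an unadjusted p under 0.05, as 9.65% of all genes did. DESeq2 called 458 genes there and 0 members. Between KI and KO, edgeR called 2 genes (0.00742%), DESeq2 8 and neither any member. Cebpd (0.82 ± 0.25, edgeR adjusted p of 1) was the 1 member with an unadjusted p under 0.05, as 4.78% of all genes had.

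The other genes of the pathway were taken from a list of 80 ligands, receptors, kinases, inhibitors, transcription factors and secreted proteins, members included. Of these, 75 were tested, while Saa1, Saa4, Fgb, A2m and Apcs had too few counts or no entry. In the exposure comparisons, 0 of the 75 were called by edgeR in WT, KO, KI or over the 3 genotypes. At an unadjusted p under 0.05, 4 were higher and 3 lower in WT, 15 higher and 3 lower in KO, 8 higher and 0 lower in KI. Of all genes, 7.35% had such a p in WT, 9.79% in KO and 2.59% in KI, both directions together. The median log2 fold change of the list was 0.13 in WT, 0.15 in KO and 0.14 in KI, beside 0.04, -0.03 and 0.01 for all genes.

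The chains of the receptor complex were well expressed in every library. Il6st, which encodes gp130, ranged from 230 to 547 CPM, Il6ra from 51.8 to 133 CPM and Lifr from 164 to 444 CPM. Jak1 ranged from 124 to 310 CPM, Stat3 from 135 to 207 CPM, Cebpb from 56.0 to 121 CPM and Nfkbiz from 23.1 to 41.1 CPM. Over the 3 genotypes the log2 fold changes were 0.24 for Il6st, 0.28 for Il6ra, 0.34 for Lifr, 0.20 for Jak1, -0.09 for Stat3, 0.06 for Cebpb and -0.13 for Nfkbiz, and none was called. In KO, Cebpb stood at 0.48, in the direction of Cebpd, with an unadjusted p of 0.0142 (edgeR).

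Most of the ligands were scarce. Osm had 0 to 17 counts per library, Il11 1 to 8, Tnf 2 to 13, Lif 12 to 56 and Il1b 12 to 93. Clcf1, a further ligand of the list, had more, at 68 to 133 counts per library and a median of 11.7 CPM. In KO, Il1b stood at 4.41 ± 0.78 CPM in vehicle and 10.6 ± 0.73 CPM in PFOA libraries (SD, n = 3 each), without overlap, at an edgeR adjusted p of 0.488. In WT its libraries overlapped, with 1.73 and 13.1 CPM on vehicle and 1.75 to 5.195 CPM on PFOA. Il1a, named after its values were seen, was lower in the KO PFOA libraries without overlap, at 6.97 ± 2.22 CPM on vehicle and 3.06 ± 1.29 CPM on PFOA (SD, n = 3 each) and an edgeR adjusted p of 0.473. Socs1 had 9 to 29 counts. Among secreted proteins, Saa2 had 0 to 13 counts, Orm1 1 to 13 and Timp1 1 to 22. Saa2 was at 0 in every KO PFOA and WT PFOA library, but its median over all libraries was also 0 CPM. On vehicle it had 0 to 1 counts in WT, and 0 to 2.99 CPM in KO with a median of 0.141 CPM.

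Cfb, Serpina3n and Pigr were better measured. Cfb ranged from 7.83 to 26.3 CPM, and its log2 fold change was 0.30 in WT, 0.33 in KO and -0.04 in KI. Serpina3n ranged from 28.3 to 202 CPM, with 0.41, 0.45 and 0.64. Pigr, the transporter of secretory immunoglobulin across epithelium, stood at -1.16 in WT, where its vehicle libraries had 38.9 and 89.8 CPM and its PFOA libraries 27.2 to 31.4 CPM, at an edgeR adjusted p of 0.544.

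Between genotypes, 6 of the 75 were called in KO against WT by edgeR, Cebpd included, beside 2.36% of all genes. Chil1, a chitinase-like protein of macrophages and neutrophils (2.72 ± 0.42, SE), S100a9, a calcium-binding protein of neutrophils (1.60 ± 0.46), and Lif (1.13 ± 0.36) were higher in KO on the log2 scale. The KO and WT libraries overlapped for each of these genes. S100a9 had 0.799 to 1.80 CPM in WT vehicle, 1.46 to 4.44 CPM in WT PFOA and 0.921 to 5.27 CPM in KO vehicle libraries. The KO PFOA libraries lay above all of these, at 10.8 to 12.4 CPM. The log2 fold change of S100a9 on PFOA in KO was 2.12 ± 0.59 (SE, edgeR adjusted p of 0.464). In WT, Lif had 3.33 to 3.44 CPM on vehicle and 1.52 to 2.31 CPM on PFOA. In KO, it had 3.94 to 10.8 and 2.77 to 6.28 CPM. Chil1 had 14.4 to 30.1 CPM in WT libraries, and 11.1 to 129 CPM in KO vehicle and 142 to 261 CPM in KO PFOA libraries, where the lowest was library 137. Serpina3m, a serine protease inhibitor, was lower (-2.23 ± 0.51), with 10.4 to 21.6 CPM in WT and 1.61 to 5.35 CPM in KO libraries. The long pentraxin Ptx3 was called on few counts, 0 to 3 per WT library and 4 to 9 per KO library. In KI against WT, 2 of the 75 were called, beside 1.37% of all genes. They were Chil1 (2.67 ± 0.42, with 104 to 155 CPM in KI) and the fibrinogen chain Fgg, which had 0 to 1 counts per WT library and 1 to 19 per KI library. WT mice differed from KO and KI mice in source as well as in PPARα, and these cannot be told apart here.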

How the data were processed

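RNA of 17 mouse lungs had been sequenced. The authors made stranded total RNA libraries and trimmed low-quality 3′ ends. They used STAR 2.6 within Partek Flow for alignment to mm10, and an expectation–maximization model to assign reads to genes. The authors deposited these estimated counts (expected counts) without normalization. Their own tests used DESeq2 (version 3.5 per the labels). The annotation release and the use of strand in counting are not given in the sources used here.

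The estimated counts were rounded, and 26946 of 31245 genes reached a total of 20 counts and were tested, with 4299 left out. Columns outside the sample list numbered 0. Groups followed the sample labels, and the dose of 6.2 µg/mL came from the methods of the study. edgeR 4.0.16 (R 4.3.3) was used with TMM factors and the quasi-likelihood F-test, with a coefficient for each of the 6 groups, or with genotype and exposure as additive terms. The Benjamini-Hochberg adjustment covered every gene tested. A call needed an adjusted p under 0.2 and a fold over 2, as in the study. The study's own filter at 20 counts kept fewer genes, so its adjustment covered fewer genes than here. The standard error (SE) is the log2 fold change divided by the root of F. The exact permutation tests used log2(CPM + 0.5), and correlations log2(CPM + 1). The tests were run on simulated counts with the same dispersion for every gene and large changes in well-counted genes only. Those counts held no outlying library, so the check does not cover outlying libraries, scarce genes or small changes. Replicates differed by more than sampling noise (the lowest chi-square per degree of freedom over 16 pairs was 6.28). It was 57.9 for the WT vehicle pair and 52.8 and 54.2 for the KO vehicle pairs with library 137. The other pairs reached at most 17.6. The p-values rest on a spread between mice estimated for each gene over all groups together. The wider spread of WT vehicle is therefore not measured on its own. Intervals from 3 counts cover counting error only.

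The members and lists were chosen with earlier results of these data known. Beside the 10 members, the genes named were 20 pathway genes fixed by symbol, any list gene that was called, and the 3 genes with the highest r to Hp, Lrg1, Saa3 and Socs3. Genes outside this rule were chosen after their values were seen. Markers of 13 cell types or states were summed as CPM. Exon lengths and positions are from GENCODE M21, whose build the table shares (99.4% of genes at the same start). Alternatives were DESeq2 1.42.0 on the same genes and with its default filters, RLE factors, other filters, the sex or i5 index as a covariate, fits of the groups compared only, an adjusted p under 0.05 with no fold threshold, and leaving out libraries. Python 3.11.15, pandas 2.3.3, numpy 2.4.6, scipy 1.17.1 and matplotlib 3.10.9 were used.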

Additional observations from a re-analysis of the deposited data

How the results depend on the processing

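With edgeR and a coefficient for each group, 0 members were called on PFOA in WT, and DESeq2 called 1, Hp, on the same genes and with its default filters. Leaving out a library in turn gave 0 to 1 in WT and for the KO and KI effects minus the WT effect, each time Hp without WT vehicle library 107. For KO against WT, the 1 call (Cebpd) became 0 without both libraries 122 and 137 (log2 fold change of -0.996) or with i5 as a covariate, and 0 to 1 with libraries left out in turn. Of the pathway list, DESeq2 called 1 in WT on the same genes and 2 with its default filters, and 2 over the 3 genotypes with each. Leaving out libraries gave 0 to 5 in WT, 0 to 2 over the 3 genotypes and for both differences of effects, 4 to 7 for KO against WT and 1 to 3 for KI against WT. The list's 6 calls for KO against WT became 3 with sex and 1 with i5 as a covariate, and its 2 calls for KI against WT became 1 with filterByExpr, with sex and with i5. The pathway list and Cebpd were followed through these settings after their values were seen.

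Of 37 fold changes of members followed, 25 kept their sign under every setting and 12, none of which was called, turned at least once. With libraries left out in turn, the log2 fold change in WT ranged from -0.44 to 1.73 for Saa3, -0.43 to 0.25 for Lcn2, -0.20 to 0.0677 for Socs3 and -0.0395 to 0.34 for Osmr. In KO it ranged from -0.27 to 0.0462 for Hp, -0.63 to 0.78 for Saa3 and -0.35 to 0.10 for Osmr. In KI it ranged from -0.25 to 0.0691 for Hp, -0.12 to 0.33 for C3, -0.69 to 0.00045 for Cebpd and -0.27 to 0.17 for Osmr, and over the 3 genotypes from -0.105 to 0.062 for Osmr. Without both libraries 122 and 137, the values that turned were -0.45 for Saa3, 0.0646 for Socs3 and -0.0422 for Osmr in WT, and 0.0354 for Hp and 0.78 for Saa3 in KO. Under the i5 covariate they were -0.36 for Saa3 in WT, 0.0555 for Hp and 0.35 for Osmr in KO, and 0.0895 for Osmr over the 3 genotypes. Under the sex covariate they were 0.0079 for Lcn2 in WT, and 0.0038 in KI and 0.0025 over the 3 genotypes for Osmr. The cause was not tested.

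No paired analysis was possible because each library has a mouse number of its own, which no other group shares. WT vehicle has 2 libraries, so that leaving out either leaves 1, which is then assumed to vary like the other groups. At 4116118 to 9237356 counts, Il6 and Saa3 were too scarce for a change to be detected.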

Other observations

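Cebpd had close companions across the libraries, named after their values were seen. Of 13372 genes with a mean of at least 5 CPM, the nearest were Nfkbia (r = 0.98), which encodes the NF-kappa B inhibitor alpha, Tsc22d3 (r = 0.96), a glucocorticoid-induced transcript also known as Gilz, and Bcl2l1 (r = 0.94), a survival factor of the BCL2 family. Without the 2 libraries farthest from the median of Cebpd, r was 0.98, 0.94 and 0.93. The levels that follow are in CPM, vehicle before PFOA, with the SD over 2 libraries for WT vehicle and over 3 libraries for every other group. For Nfkbia they were 110.1 ± 7.03 and 121 ± 17.02 in WT, 62.3 ± 3.03 and 89.1 ± 15.2 in KO, and 106.2 ± 30.6 and 96.8 ± 22.7 in KI. For Tsc22d3 they were 255 ± 62.7 and 328 ± 47.5 in WT, 98.0 ± 20.9 and 174 ± 56.7 in KO, and 250.03 ± 115 and 203 ± 98.4 in KI. The correlations are over 17 libraries that share groups and scaling. The summed level of 9 immediate early genes had r = 0.75 with Cebpd (0.58 without the 2 farthest libraries).

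Lcn2, also followed after its values were seen, was nearest to Suox (r = 0.89), which was also near Lrg1, and to Sftpd (r = 0.89), the surfactant protein D of alveolar and airway epithelium. Of the 13 marker lists, those whose summed levels had the highest r to both Lrg1 and Lcn2 were alveolar macrophage markers (r = 0.69 with Lrg1 and 0.70 with Lcn2, and 0.62 and 0.59 without the 2 farthest libraries), fibroblast markers (0.68 and 0.69, and 0.47 and 0.48) and alveolar type 2 cell markers (0.67 and 0.75, and 0.45 and 0.65). Monocyte markers had 0.56 and 0.43, and 0.58 and 0.44 without the 2 farthest libraries, so for Lrg1 the order of the lists changed without them.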
